A study of Mus musculus with 10 samples.

Results

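The genes described here are those of the brain vessel wall: tight junction genes, endothelial receptors and surface proteins, transporters of the blood-brain barrier, pericyte genes and the adhesion molecules to which leukocytes bind. They were chosen by name, as a list of 36 genes, and 35 of them were measured among the 30142 genes tested. Ly6a was not analysed here, because no probe row named it alone. The tissue was mouse brain 7 days after a controlled cortical impact, in which a piston strikes one hemisphere, here to a depth of 2 mm. The ipsilateral group (5 samples) was tissue at the impact site, and the contralateral group (5 samples) was the matching region of the opposite hemisphere. Per the labels, the animals were adult males and females of 8 to 12 weeks, with no strain, genotype or drug treatment stated for either group, and both groups came from operated animals. No unoperated group was analysed here, so each difference is one between the hemispheres of injured brains. Values are log2 signals, and a difference of 1 on this scale is a 2-fold difference.

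Endothelial cells of the brain seal the gaps between them with tight junctions, carry nutrients through dedicated transporters and keep vesicle transport low. Pericytes wrap the capillaries within the basement membrane and help to keep this barrier closed. After an injury the barrier can open, endothelial cells can display adhesion molecules that capture leukocytes, and vessels can regrow.

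The upstream sequences of 4 of these genes are shown because the results turn on them: Vtn and Icam1 had the smallest p-values among the measured genes, Flt1 had the smallest among those with lower ipsilateral signal, and Cldn5 encodes the main claudin of the barrier. Each sequence is the 250 bases before the annotated start of the gene in RefSeq (build GRCm38.p6), written in the direction of transcription. They lie at chr11:78498870-78499119 for Vtn (plus strand), chr9:21015690-21015939 for Icam1 (plus strand), chr5:147726012-147726261 for Flt1 (minus strand) and chr16:18776597-18776846 for Cldn5 (plus strand). Capitals mark every match to one of the 6 motifs described after them.
Vtn: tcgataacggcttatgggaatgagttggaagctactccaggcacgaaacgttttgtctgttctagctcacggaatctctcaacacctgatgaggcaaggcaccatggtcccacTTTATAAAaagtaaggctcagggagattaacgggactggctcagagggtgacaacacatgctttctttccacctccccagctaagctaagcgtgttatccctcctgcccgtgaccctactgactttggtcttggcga
Icam1: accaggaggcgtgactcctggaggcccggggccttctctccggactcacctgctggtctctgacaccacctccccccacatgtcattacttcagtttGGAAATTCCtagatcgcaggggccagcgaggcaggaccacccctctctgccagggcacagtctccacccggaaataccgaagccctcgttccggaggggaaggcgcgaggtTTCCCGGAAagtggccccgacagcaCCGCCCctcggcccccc
Flt1: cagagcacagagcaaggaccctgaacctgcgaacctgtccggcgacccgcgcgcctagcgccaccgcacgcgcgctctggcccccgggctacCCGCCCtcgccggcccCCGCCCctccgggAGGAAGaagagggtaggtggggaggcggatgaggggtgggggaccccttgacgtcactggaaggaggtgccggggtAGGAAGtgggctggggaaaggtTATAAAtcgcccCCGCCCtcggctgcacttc
Cldn5: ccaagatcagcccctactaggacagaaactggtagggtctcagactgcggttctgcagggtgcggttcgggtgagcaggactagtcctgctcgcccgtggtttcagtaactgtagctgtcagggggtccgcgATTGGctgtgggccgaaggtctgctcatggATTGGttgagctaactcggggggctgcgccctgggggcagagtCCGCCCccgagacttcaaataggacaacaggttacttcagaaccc

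The motifs were searched on both strands. RefSeq upstream sequences were found for 25 of the measured genes. No entry was used for Esam, Jam2, Jam3, Pecam1, Cdh5, Slc7a5, Plvap, Pdgfrb, Icam2 and Vcam1. The TATA box, TATAAA, stood in 5 of the 25, Vtn and Flt1 among them, against 12.4% of all 32851 RefSeq promoters. In Vtn it is a pair of overlapping matches on opposite strands. The GC box, GGGCGG, stood in 13, including Icam1, Flt1 and Cldn5, against 32.7% of all promoters. The CCAAT box, CCAAT, stood in 10, including Cldn5, against 33.9%. The ETS core, AGGAAG, stood in 11, including Flt1, against 29.5%. The NF-kappaB form searched, GGAANTTCC, stood in Icam1 alone of the 25, against 0.813% of all promoters. The STAT form searched, TTCNNNGAA, stood in Icam1 and Sele, against 7.02%. These matches describe the letters and are not evidence that a factor binds there.

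The labelled tissue was checked against markers. Snap25, a synaptic gene of neurons, stood between 17.76 and 18.50 on all arrays. The medians of the arrays lay between 4.79 and 4.84 ipsilaterally and between 4.71 and 4.77 contralaterally, so that every ipsilateral array had the higher median. Arrays of one side correlated across genes at 0.990 to 0.997, and arrays of opposite sides at 0.988 to 0.995. Among genes of other cells, the 3 of 12 neuronal markers that passed, Rbfox3, Nefl and Nefm, were lower ipsilaterally, while 5 of the 12 had higher means. Opalin and Mal, 2 of 9 oligodendrocyte markers, passed as lower. Aqp4, 1 of 10 astrocyte markers, passed as higher, while 3 of the 10 had lower ipsilateral means. Dcn, Col1a1, Islr and Aldh1a2, 4 of 11 markers of fibroblasts and meninges, also passed as higher. Choroid plexus genes set the arrays numbered 2 and 4 apart from the rest on both sides. Ttr, the transthyretin gene of that tissue, stood at 15.87 and 13.64 on ipsilateral arrays 2 and 4 and at 16.54 and 12.66 on contralateral arrays 2 and 4. On the other arrays Ttr lay between 5.83 and 7.55.

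Of the 35 listed genes, 0 passed the test in limma, while 5.55% of all genes tested did, 1.22% with higher and 4.33% with lower ipsilateral signal. Calls with higher signal were 22.0% of all calls, and 8.13% after centring the arrays on their medians. At an unadjusted p under 0.05 there were 10 vascular genes, of 35, against 21.3% of all genes. Of these 10, Cldn5, F11r, Cgn, Pdgfrb, Anpep, Vtn, Icam1 and Vcam1 had higher ipsilateral means (10% of all genes did), and Flt1 and Slco1c1 had lower ones (11.3% of all genes did). Vtn was the only gene whose arrays did not overlap between the sides, all ipsilateral ones being higher. Of all genes tested, 7.25% had groups without overlap, 2.04% with the ipsilateral side higher and 5.21% with it lower.

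The differences of the 35 genes ran from -0.38 for Slco1c1 to 0.73 for Vtn, and their median was 0.046 against 0.022 for all genes. For 33 of the 35 the 95% interval of the difference lay within 1 on the log2 scale in either direction, so a change of 2-fold or more lay outside it. The exceptions were Vtn and Vcam1, whose intervals reached 1.14 and 1.09. The ipsilateral mean was the higher one for 25 genes, which is 71.4% against 55.8% of all genes. That count depended on scaling and on 1 array: it was 12 with arrays centred on their medians, which moved the median of all genes to -0.05, and 16 without ipsilateral array 5. In bulk tissue, fewer cells of a type and less RNA per cell cannot be told apart.

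**Figure D1:**
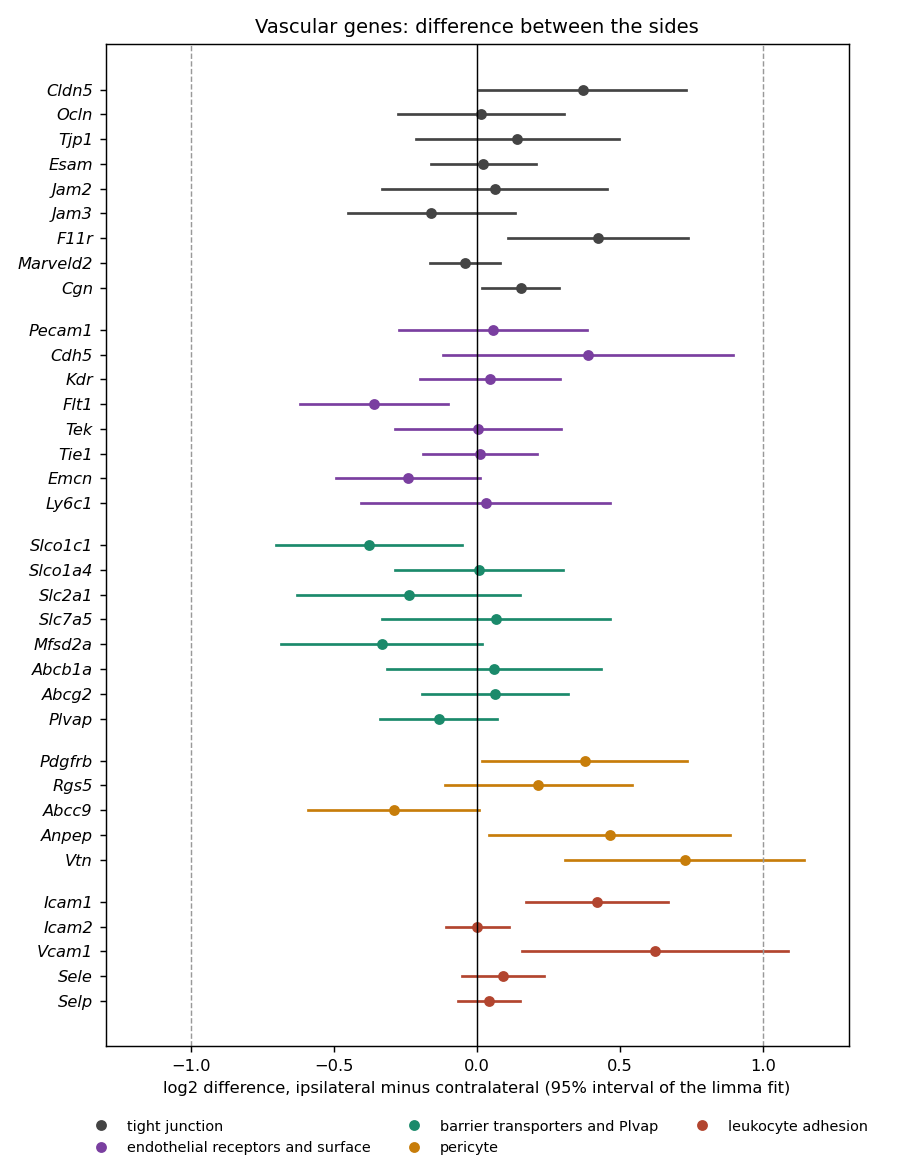
Difference between the sides for each of the 35 vascular genes, in log2 units (ipsilateral minus contralateral, 5 arrays a side), with genes grouped by role. Points are differences of means, bars are 95% intervals of the limma fit and dashed lines mark 2-fold; only the bars of Vtn and Vcam1 cross a dashed line, and the bars of 10 genes leave out 0.

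None of the 9 tight junction genes passed in limma. Of these, 3 had an unadjusted p under 0.05, all with higher ipsilateral means, and the median difference of the 9 was 0.06. Cldn5, the claudin that seals the endothelial cleft, read 9.18, 8.94, 9.26, 9.53 and 9.47 on ipsilateral arrays 1 to 5. On contralateral arrays 1 to 5 it read 9.23, 9.06, 8.42, 9.11 and 8.71. The low contralateral arrays were those numbered 3 and 5, the others lay within the ipsilateral range, and the groups overlapped. The difference was 0.37 ± 0.16 (SE; 1.29-fold), with an adjusted p of 0.225.

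F11r encodes JAM-A, a junctional adhesion molecule that endothelial cells, epithelia and leukocytes share. It read 6.97, 7.37, 7.18, 7.57 and 7.55 on the ipsilateral arrays in order, and 6.64, 7.30, 6.81, 6.89 and 6.88 on the contralateral ones. Contralateral array 2 reached into the ipsilateral range, and the other contralateral arrays lay below it. The difference was 0.42 ± 0.14 (SE), with an adjusted p of 0.118. Without ipsilateral array 1, the lowest of its side, F11r passed with an adjusted p of 0.0452.

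Cgn encodes cingulin, a cytoplasmic partner of the junction plaque. Its ipsilateral arrays read 6.06, 6.17, 6.06, 6.30 and 6.16, and its contralateral arrays 5.95, 6.02, 6.03, 5.93 and 6.06. The groups touched at 6.06, and the difference was 0.15 ± 0.06 (SE, adjusted p = 0.183).

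Occludin and ZO-1 form the core of the junction. Ocln, occludin, had means of 7.43 ± 0.21 (SD, n = 5) ipsilaterally and 7.41 ± 0.24 contralaterally, with a difference of 0.01 and an interval of -0.28 to 0.30. Tjp1, the scaffold ZO-1 that links the junction to actin, read 12.16 to 13.19 ipsilaterally and 12.39 to 12.65 contralaterally, with a difference of 0.14 (adjusted p = 0.678). The ipsilateral arrays of Tjp1 lay on both sides of the contralateral ones, and array 5 was the highest.

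Among the adhesion molecules of the junction, Jam2 (JAM-B) read 10.45 to 11.55 ipsilaterally and 10.72 to 11.04 contralaterally, with a difference of 0.06 (adjusted p = 0.888). Jam3 (JAM-C) had means of 8.92 ± 0.20 and 9.08 ± 0.25, with a difference of -0.16 (adjusted p = 0.536). Esam, an endothelial cell-selective adhesion molecule, had means of 6.57 ± 0.15 and 6.55 ± 0.10, and its difference of 0.02 had an interval of -0.16 to 0.21. Marveld2, the tricellulin of corners where 3 cells meet, stood between 4.88 and 5.08 on all arrays, with a difference of -0.04 (adjusted p = 0.723).

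Among the endothelial receptors and surface proteins none of the 8 measured genes passed, 1 (Flt1) had an unadjusted p under 0.05, and the median difference was 0.02. Flt1, the VEGF receptor 1 that binds VEGF tightly and signals weakly, read 9.27, 9.17, 9.47, 9.52 and 9.75 on ipsilateral arrays 1 to 5. Its contralateral arrays read 9.75, 10.03, 9.85, 9.79 and 9.56. Ipsilateral arrays 1 to 4 lay below every contralateral array, and array 5 reached into the contralateral range. The difference was -0.36 ± 0.12 (SE; 0.779 of the contralateral level), with an interval of -0.62 to -0.10 and an adjusted p of 0.108.

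Kdr, the VEGF receptor 2 that carries most of the growth signal, is the other VEGF receptor among the 35 genes. It had means of 8.08 ± 0.11 (SD, n = 5) ipsilaterally and 8.03 ± 0.24 contralaterally, with a difference of 0.05 and an interval of -0.20 to 0.29. Whether the differences of Flt1 and Kdr themselves differ was not tested.

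The angiopoietin receptor Tek (Tie2) read 7.53 to 8.06 ipsilaterally and 7.47 to 8.04 contralaterally, with a difference of 0.00 and an interval of -0.29 to 0.29. Its partner Tie1 had means of 6.26 ± 0.20 and 6.25 ± 0.06, with an interval of -0.19 to 0.21 for the difference. Pecam1, the CD31 protein of endothelial contacts, read 7.23 to 8.07 and 7.31 to 7.72, with a difference of 0.06 (adjusted p = 0.878). For Tek, Tie1 and Pecam1 the ipsilateral array 5 was the highest of its side.

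Cdh5 encodes VE-cadherin, the adherens junction cadherin of endothelium. It read 8.55, 8.48, 8.94, 8.89 and 9.79 on ipsilateral arrays 1 to 5, and 8.25, 8.93, 8.55, 8.60 and 8.38 on the contralateral ones. Ipsilateral array 5 stood far above the rest, array 3 was just above the highest contralateral array, and the other 3 ipsilateral arrays lay within the contralateral range. The difference was 0.39 ± 0.23 (SE, adjusted p = 0.371), and without ipsilateral array 5 it was 0.17.

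Emcn, the sialomucin endomucin of capillaries and veins, had means of 7.03 ± 0.19 (SD, n = 5) ipsilaterally and 7.28 ± 0.20 contralaterally, with a difference of -0.24 ± 0.11 (SE, adjusted p = 0.254). Ly6c1, a surface protein of brain endothelium that monocytes also carry in a related form, read 8.39 to 9.39 ipsilaterally and 8.46 to 9.13 contralaterally. Its difference was 0.03, with an interval of -0.41 to 0.47.

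None of the 7 transporters passed, and neither did Plvap, which is grouped with them. Of the transporters 4 had higher and 3 lower ipsilateral means, and 1 had an unadjusted p under 0.05. The median difference of the 8 genes was -0.06. Slco1c1, the carrier OATP1C1 that brings thyroxine into the brain and that astrocytes also express, read 10.73, 11.07, 10.71, 11.36 and 11.08 on ipsilateral arrays 1 to 5. Its contralateral arrays read 11.39, 11.76, 11.36, 11.17 and 11.16. Ipsilateral array 4 lay in the contralateral range, and the other ipsilateral arrays lay below it. The difference was -0.38 ± 0.15 (SE, adjusted p = 0.172).

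Mfsd2a, the carrier of lysophospholipids with docosahexaenoic acid that also restrains vesicle transport, read 9.28, 8.93, 9.40, 9.06 and 9.77 on the ipsilateral arrays. On the contralateral arrays it read 9.57, 9.44, 9.63, 9.47 and 10. The difference was -0.33 ± 0.16 (SE), with an interval of -0.69 to 0.02 and an adjusted p of 0.259. On both sides array 5 was the highest for this gene, and the groups overlapped through it.

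Slc2a1 encodes the glucose transporter GLUT1. It read 12.82, 13.14, 13.50, 13.48 and 13.81 ipsilaterally, and 13.20, 13.75, 13.66, 13.60 and 13.74 contralaterally. Array 1 was the lowest on both sides, and the difference of -0.24 had an interval of -0.63 to 0.15. Slc7a5, the large neutral amino acid transporter LAT1, read 10.37 to 11.47 and 10.56 to 10.98, with a difference of 0.07 (adjusted p = 0.882).

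The remaining carriers had differences of at most 0.06. Slco1a4, the organic anion carrier OATP1A4 of brain endothelium, had means of 10.84 ± 0.25 and 10.84 ± 0.21 (SD, n = 5 each), and a difference of 0.01. Abcb1a, the drug pump P-glycoprotein, read 9.49 to 10.55 and 9.87 to 10.22, with a difference of 0.06 (adjusted p = 0.890). Abcg2, the breast cancer resistance protein, which is also a drug pump, had means of 7.99 ± 0.25 and 7.93 ± 0.12, with a difference of 0.06 (adjusted p = 0.817).

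Plvap is a protein of diaphragms in leaky vessels and is low in barrier endothelium. It read 4.76, 5.09, 4.94, 4.93 and 5.13 on the ipsilateral arrays and 4.97, 5.29, 5.09, 4.94 and 5.23 on the contralateral ones. No ipsilateral array exceeded the contralateral range. The signal was low, with a mean of 5.04 over the 10 arrays against array medians of 4.71 to 4.84, and the filter on the lowest 50% of genes left Plvap out. The difference was -0.13 ± 0.09 (SE), with an interval of -0.34 to 0.07 and an adjusted p of 0.453.

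The pericyte genes had the highest median difference of the 5 groups, 0.38, although none of the 5 passed. Vtn encodes vitronectin, an adhesive glycoprotein of plasma and matrix that marks brain pericytes. It read 8.95, 8.86, 9.34, 9.29 and 9.93 on ipsilateral arrays 1 to 5, and 8.19, 8.73, 8.57, 8.73 and 8.52 on the contralateral ones. Every ipsilateral array lay above every contralateral one, with array 5 well above the others of its side. The means were 9.27 ± 0.42 and 8.55 ± 0.22 (SD, n = 5 each), and the difference was 0.73 ± 0.19 (SE; 1.65-fold), with an interval of 0.31 to 1.14. The adjusted p was 0.0514, just short of the threshold, and over 21 alternatives it ran from 0.0328 to 0.128, with 7 of them under 0.05.

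Anpep, the aminopeptidase N (CD13) of pericytes that myeloid cells and fibroblasts also carry, read 6.38, 6.15, 6.56, 6.69 and 7.28 ipsilaterally. Its contralateral arrays read 5.82, 6.29, 6.20, 6.39 and 6.04. Ipsilateral array 5 was again the highest, and arrays 1 and 2 lay within the contralateral range. The difference was 0.46 ± 0.19 (SE, adjusted p = 0.192).

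Pdgfrb, the PDGF receptor beta by which endothelial PDGF-B recruits pericytes, read 8.44, 8.46, 8.83, 8.59 and 9.23 on the ipsilateral arrays. On the contralateral arrays it read 8.16, 8.55, 8.51, 8.43 and 8.02. Ipsilateral arrays 3 to 5 lay above all contralateral ones, while arrays 1 and 2 did not. The difference was 0.38 ± 0.16 (SE, adjusted p = 0.212).

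Rgs5 and Abcc9 complete the pericyte genes, and their differences pointed in opposite directions. Rgs5, a regulator of G protein signalling in pericytes and smooth muscle, read 10.87 to 11.43 ipsilaterally and 10.68 to 11.37 contralaterally, with a difference of 0.21 (adjusted p = 0.453). Abcc9, the SUR2 subunit of a potassium channel of pericytes, read 7.02, 7.23, 7.22, 7.50 and 7.68 ipsilaterally and 7.44, 7.96, 7.55, 7.67 and 7.49 contralaterally. Ipsilateral arrays 1 to 3 lay below the contralateral range and arrays 4 and 5 within it. The difference was -0.29 ± 0.14 (SE), with an interval of -0.59 to 0.01 and an adjusted p of 0.246.

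Genes of other matrix-producing and contractile cells had their highest mean on the same ipsilateral array as the pericyte genes. Of the 11 measured markers of fibroblasts and meninges all had higher ipsilateral means and 4 passed, and their mean signal ran from 7.25 to 8.51 ipsilaterally and from 6.30 to 6.98 contralaterally. The 8 smooth muscle markers also had higher ipsilateral means, 1 passed, and their mean ran from 5.65 to 7.00 and from 5.58 to 5.75. On ipsilateral array 5 both means were at their highest, 8.51 and 7.00, as was the pericyte mean, 9.10. Acta2, the smooth muscle actin, read 11.06 there and 7.78 to 9.25 on the other ipsilateral arrays. Contralaterally the pericyte and smooth muscle means were highest on array 2, at 8.58 and 5.75, and the fibroblast mean on array 4, at 6.98. The part of these other cells in the values of Vtn, Anpep and Pdgfrb was not tested.

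The leukocyte adhesion molecules were led by Icam1 and Vcam1, while the selectins were near the floor of the signal. Icam1 and Icam2 were low too, with 10-array means of 5.06 and 4.93 against array medians of 4.71 to 4.84. The filter on the lowest 50% of genes left both out. None of the 5 passed, 2 had an unadjusted p under 0.05, and the median difference was 0.09. Icam1, the ligand of leukocyte beta-2 integrins, read 5.13, 5.09, 5.18, 5.65 and 5.30 on ipsilateral arrays 1 to 5, and 4.83, 5.10, 4.72, 4.82 and 4.78 on the contralateral ones. Contralateral array 2 was just above the lowest ipsilateral array, and the other contralateral arrays lay below the ipsilateral range. The means were 5.27 ± 0.23 and 4.85 ± 0.15 (SD, n = 5 each), and the difference was 0.42 ± 0.11 (SE; 1.34-fold). The adjusted p was 0.0572, and over 20 alternatives it ran from 0.0357 to 0.136, with 5 of them under 0.05. Without contralateral array 2 it was 0.0414.

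Vcam1, the ligand of the integrin VLA-4 on lymphocytes and monocytes, read 9.14, 9.64, 9.60, 10.07 and 10.24 ipsilaterally, and 8.75, 9.61, 9.13, 9.05 and 9.04 contralaterally. Contralateral array 2 lay within the ipsilateral range, and the other contralateral arrays lay below it. The difference was 0.62 ± 0.21 (SE; 1.54-fold), with an interval of 0.16 to 1.09 and an adjusted p of 0.120. Without ipsilateral array 1, Vcam1 passed with an adjusted p of 0.0340.

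Icam2, the constitutive endothelial ligand of the same beta-2 integrins, had a mean of 4.93 on both sides and an interval of -0.11 to 0.11 for the difference. Sele, the inducible selectin of activated endothelium, read 3.62 to 3.90 ipsilaterally and 3.59 to 3.76 contralaterally, with a difference of 0.09 (adjusted p = 0.464). Selp, the selectin stored in endothelial and platelet granules, read 3.78 to 3.93 and 3.77 to 3.85, with a difference of 0.04 (adjusted p = 0.701). Both selectins lay below the median signal of every array. The 11 measured markers of microglia and macrophages, cells that can also carry Icam1, all had higher ipsilateral means, and 0 passed, with 9 at an unadjusted p under 0.05. Their mean signal was 8.10, 8.55, 8.58, 9.79 and 9.57 on ipsilateral arrays 1 to 5, and 7.73 to 8.40 contralaterally. Their part in the values of Icam1 and Vcam1 was not tested.

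**Figure D2:**
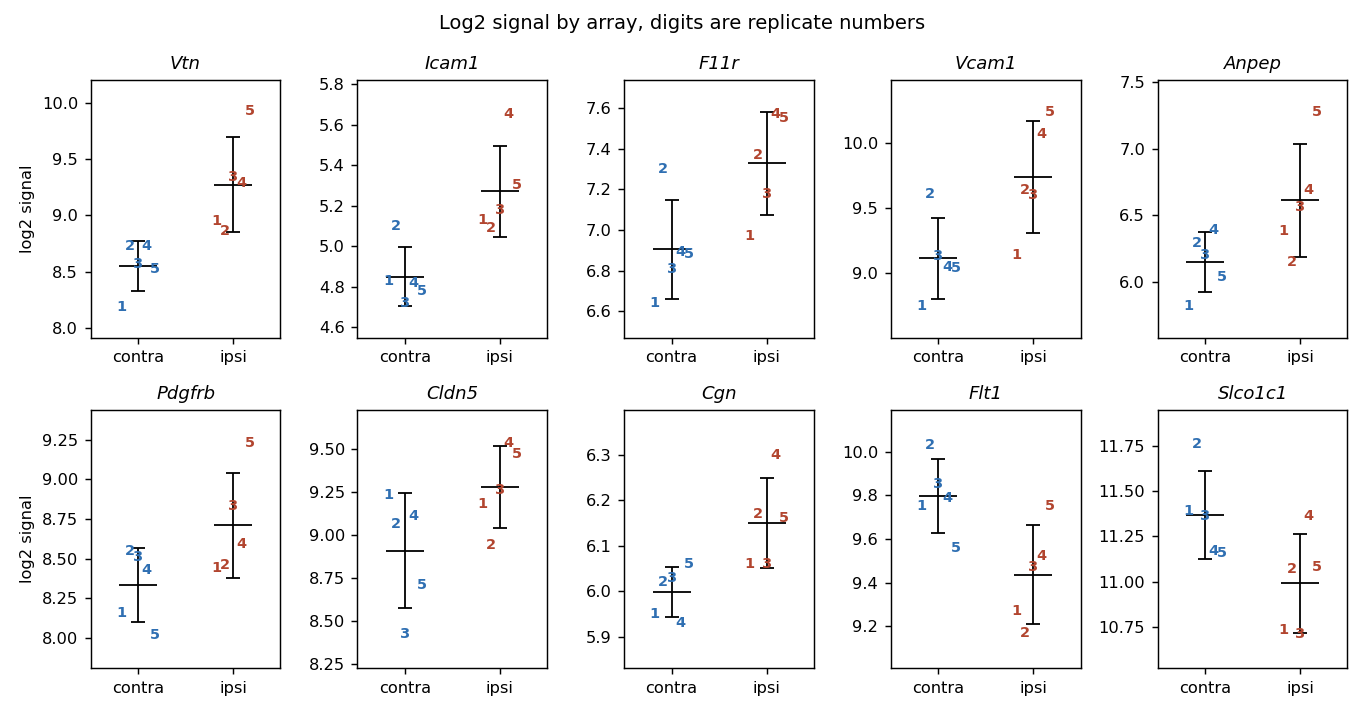
Log2 signal of the 10 vascular genes of the 35 with an unadjusted p under 0.05, by side; each digit is the replicate number of 1 array, long horizontal lines are means and bars are ± 1 SD (n = 5 a side). Axes differ between genes and do not start at 0; Vtn alone has no overlap between the sides, contralateral array 2 reaches the ipsilateral range for Icam1, F11r and Vcam1, and ipsilateral array 5 is the highest for Vtn, Vcam1, Anpep, Pdgfrb and Flt1.

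Within each side the vascular genes shared an order of arrays. Ipsilateral array 5 was the highest of its side for 22 of the 35 genes (62.9%, against 20.0% of all genes) and the lowest for 0, which all genes reached in 18.2%. Ipsilateral array 1 was the lowest for 16 (45.7%, against 23.1% of all genes). On the contralateral side array 2 was the highest for 25 (71.4%, against 16.3%), and array 1 was the lowest for 16 (45.7%, against 17.1%). Arrays that tied counted for each of them. These shares describe 5 arrays a side, and genes of the same vessels are not independent of each other.

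**Figure D3:**
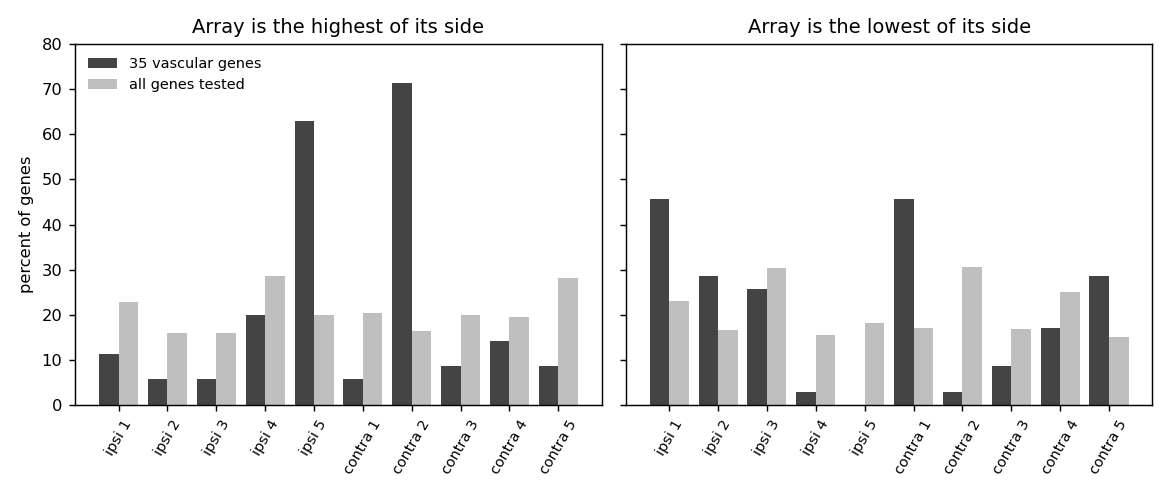
Percent of genes for which each array was the highest (left) or the lowest (right) of its side, for the 35 vascular genes (dark bars) and all 30142 genes tested (light bars). Dark bars stand far above light ones for ipsilateral array 5 (62.9% against 20.0%) and contralateral array 2 (71.4% against 16.3%) on the left.

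The mean signal of the endothelial, transporter and pericyte groups was also highest of its side on ipsilateral array 5 and on contralateral array 2. The endothelial mean was 7.81, 7.74, 7.96, 8.00 and 8.38 on ipsilateral arrays 1 to 5, and 7.90, 8.27, 7.95, 7.94 and 7.87 on the contralateral ones. The mean of the transporters with Plvap was 9.54, 9.60, 9.85, 9.89 and 10.12 ipsilaterally, and 9.77, 10.06, 9.96, 9.85 and 9.91 contralaterally. The pericyte mean was 8.33, 8.34, 8.68, 8.69 and 9.10 ipsilaterally, and 8.12, 8.58, 8.33, 8.47 and 8.15 contralaterally. In all 3 groups ipsilateral array 5 exceeded every contralateral array, and the sides overlapped.

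The tight junction mean was highest on ipsilateral arrays 5 and 4, at 8.45 and 8.40, and between 8.10 and 8.31 on the contralateral arrays. The adhesion mean was highest on the same arrays in the other order, at 5.63 on array 5 and 5.69 on array 4, which were also the arrays with the highest microglia and macrophage means. Choroid plexus markers were high on contralateral array 2 as well, with a mean of 9.13 against 5.55 to 6.66 on the other contralateral arrays. They were low, at 5.88, on ipsilateral array 5. Their part in the high values of contralateral array 2 was not tested. When arrays 2 and 4 of either side were left out, 0 of the 35 genes passed. Of all 30142 genes, 77 were then called higher and 289 lower, against 369 and 1305 with all arrays. Of the 35, 8 had an unadjusted p under 0.05 and 24 had higher ipsilateral means. The matching shares of all genes were not computed for these counts.

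**Figure D4:**
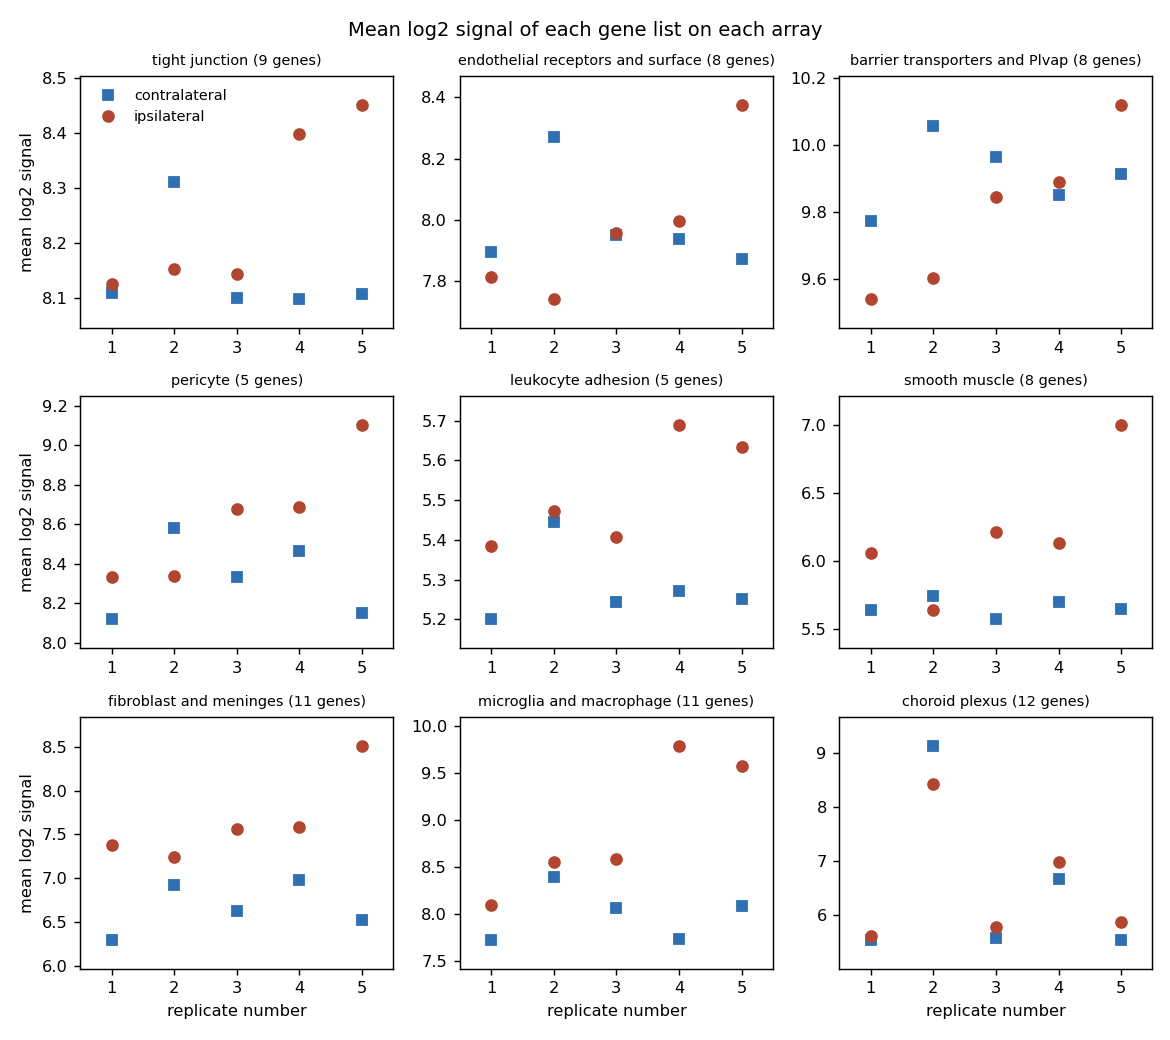
Mean log2 signal of 5 groups of vascular genes and 4 lists of markers of other cells on each array, by replicate number (the labels do not say whether equal numbers are pairs), for the contralateral (squares) and ipsilateral side (circles). Endothelial and pericyte means peak on ipsilateral array 5 and contralateral array 2, fibroblast means lie higher on every ipsilateral array than on any contralateral one, and choroid plexus means are high on the arrays numbered 2 and 4 of both sides. Axes differ between lists and do not start at 0.

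The spread among arrays was also wider for these genes than over all genes. Their median SD was 0.253 ipsilaterally and 0.208 contralaterally, against 0.155 and 0.124 for all genes. Of all genes, 11259 had a mean below the median signal of every array, against 2 of the 35. The 134 other vascular genes described below had median SDs of 0.218 and 0.136, and 79.1% of them had the larger SD ipsilaterally. The SD was larger on the ipsilateral side for 26 of the 35 (74.3%, against 63.6% of all genes), including all 7 transporters, but not Plvap, and 5 of the 9 tight junction genes. The median SE of the difference was 0.136 for the 35 genes and 0.093 for all genes.

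Other genes of the vessel wall were read from 8 lists of 144 different genes, 134 of them measured, and 5 passed with higher and 4 with lower ipsilateral signal. Over all genes 1.22% passed with higher and 4.33% with lower signal. The lower calls here were no larger a share than over all genes, and the higher calls were a larger one. The lists were chosen with earlier results of these data known, and the difference in shares was not tested. Among 26 other endothelial genes 1 passed, and their median difference was 0.04. That gene was Cd34, a sialomucin of endothelium that progenitor cells and some fibroblasts also carry. It read 9.03, 8.87, 8.79, 9.11 and 9.20 on ipsilateral arrays 1 to 5, and 11.23, 11.11, 10.93, 10.10 and 11.22 on the contralateral ones. The groups lay far apart, with contralateral array 4 the lowest of its side. Cd34 fell by 1.92 ± 0.20 (SE; to 0.265 of the contralateral level), with an adjusted p of 0.000994, and passed under all 21 alternatives. The 8 endothelial receptors and surface genes above differed by -0.36 to 0.39, and none of them passed.

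Vessel growth genes included 3 that rose and 1 that fell, among 21 measured with a median difference of -0.03. Nrp2, a neuropilin that serves as co-receptor for VEGF-C and semaphorins, read 8.77, 9.33, 9.71, 9.35 and 9.28 ipsilaterally, and 7.12, 8.10, 7.90, 8.82 and 7.38 contralaterally. Contralateral array 4 was just above the lowest ipsilateral array. Nrp2 rose by 1.42 ± 0.29 (SE; 2.68-fold), with an adjusted p of 0.0178, and passed under all 21 alternatives. The mean of the fibroblast and meninges markers was also highest contralaterally on array 4 and lowest on array 1, at 6.98 and 6.30. Ipsilaterally Nrp2 was highest on array 3 and that mean on array 5. The part of such cells in the rise of Nrp2 was not tested.

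Angpt1, the angiopoietin that activates Tek and steadies vessels, read 8.05, 8.30, 8.02, 8.76 and 9.32 ipsilaterally, and 6.82, 7.10, 7.38, 8.22 and 6.89 contralaterally. The groups overlapped through contralateral array 4. Angpt1 rose by 1.21 ± 0.31 (SE), with an adjusted p of 0.0483, and 11 of 21 alternatives kept the call. Leaving out single arrays ended it in all but 3 of 10 cases, with adjusted p up to 0.121. The part of other cells in the rise of Angpt1 was not tested.

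Pgf, the placental growth factor that binds Flt1, read 5.15, 5.23, 4.99, 5.15 and 5.39 ipsilaterally, and 4.99, 4.72, 4.95, 4.70 and 4.77 contralaterally. The groups touched at 4.99. Pgf rose by 0.36 ± 0.09 (SE, adjusted p = 0.0413), and 9 of 20 alternatives kept the call, 3 of 10 when single arrays were left out, with adjusted p up to 0.0983 among these.

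Apln encodes apelin, a peptide of growing vessel tips that neurons also make. It read 7.24, 6.82, 6.31, 7.31 and 7.18 ipsilaterally, and 8.15, 8.24, 7.94, 7.66 and 8.34 contralaterally. The groups did not overlap. Apln fell by 1.09 ± 0.20 (SE), with an adjusted p of 0.00982, and passed under 20 of 21 alternatives. The exception was the omission of the arrays numbered 2 and 4, at 0.0822, where the difference was -1.23.

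In the list of other barrier transport, 2 of 19 measured genes passed, both lower, with a median difference of 0.04. Tfrc, the transferrin receptor that carries iron into the brain and that neurons also express, read 10.10, 9.76, 9.74, 9.68 and 9.09 ipsilaterally, and 10.96, 10.58, 10.49, 10.46 and 10.48 contralaterally. Lrp1, a lipoprotein receptor of vessels, neurons and glia that clears amyloid beta, read 12.45 to 12.74 and 12.94 to 13.22. Neither gene overlapped between the sides. Tfrc fell by 0.92 ± 0.17 (SE, adjusted p = 0.0109) and Lrp1 by 0.42 ± 0.07 (adjusted p = 0.00852). Both calls were lost without the arrays numbered 2 and 4, at 0.144 and 0.0823, where the differences were -1 and -0.5. Of 12 neuronal markers 7 had lower and 5 higher ipsilateral means, and the 3 that passed, Rbfox3, Nefl and Nefm, were lower by 0.54, 0.89 and 1.00. The mean of the 12 overlapped between the sides, at 13.40 to 14.10 ipsilaterally and 13.76 to 13.96 contralaterally. The part of neurons in the fall of Tfrc, Lrp1 and Apln was not tested.

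Among 18 other mural genes, Ifitm1 and Mylk passed, and the median difference was 0.17. Ifitm1, an interferon-induced membrane protein that marks brain pericytes, read 5.00, 5.24, 5.14, 5.21 and 5.44 against 4.82 to 4.92 contralaterally. Mylk, the myosin light chain kinase of smooth muscle, read 5.82, 5.82, 5.90, 5.94 and 6.21 against 5.49 to 5.69. Neither overlapped between the sides. Ifitm1 rose by 0.33 ± 0.08 (SE, adjusted p = 0.0320) and Mylk by 0.36 ± 0.08 (adjusted p = 0.0296). Ifitm1 kept its call in 8 of 20 alternatives and Mylk in 12 of 21, and with single arrays left out the adjusted p reached 0.0863 and 0.0822.

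**Figure D5:**
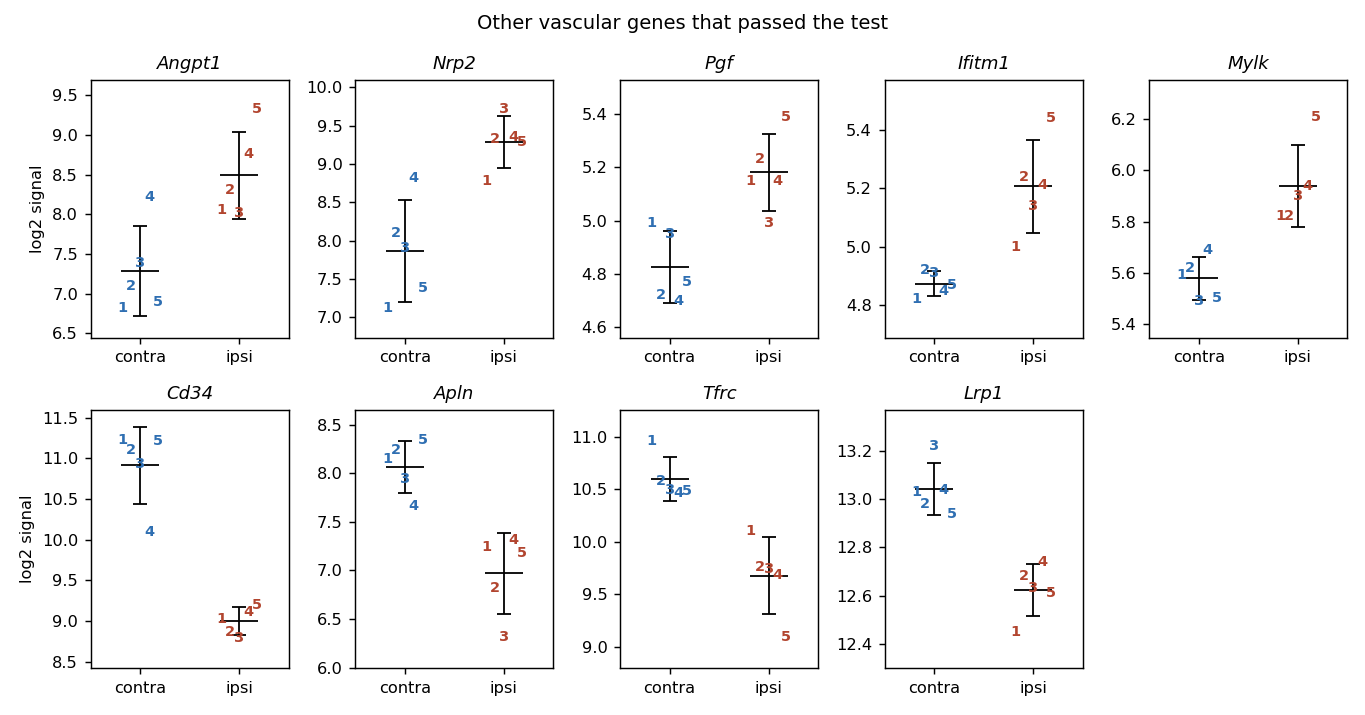
Log2 signal of the 9 other vascular genes that passed the test, by side; each digit is the replicate number of 1 array, long horizontal lines are means and bars are ± 1 SD (n = 5 a side). Axes differ between genes and do not start at 0; Cd34, Apln, Tfrc and Lrp1 are lower on every ipsilateral array than on any contralateral one, and contralateral array 4 is the highest of its side for Angpt1 and Nrp2 and the lowest for Cd34 and Apln.

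In the remaining 4 lists none passed in limma. Of 14 genes of the Wnt programme that sets up the barrier, the one with the largest statistic was the Wnt target Axin2, with a difference of -0.14 (adjusted p = 0.176), and 2 had an unadjusted p under 0.05, 1 in each direction. Of 8 caveolar and transcytosis genes it was Emp1, with 0.38 (adjusted p = 0.230), and 2 had an unadjusted p under 0.05. Of 11 basement membrane genes it was the laminin chain Lamb1, with 0.66 (adjusted p = 0.0658), and 6 of these 11 had an unadjusted p under 0.05, all higher. Of 19 genes of inflammatory adhesion and signalling it was the TNF receptor Tnfrsf1a, with 0.59 (adjusted p = 0.0697), and 5 had an unadjusted p under 0.05, 4 of them higher. Their median differences were 0.09, 0.12, 0.16 and 0.21.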

How the data were processed

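RNA from 10 brain samples was measured on 1 whole-transcript array each. The authors deposited log2 signals, and the submitters' processing notes name Transcriptome Analysis Console 4.0. How the background was corrected, how arrays were normalized and which build was used is not given in the sources used here. Of 65956 probe rows, 30604 named 1 gene symbol. Where more than 1 row named a gene, the brightest over the 10 arrays stood for it, which gave 30142 genes. The comparison, ipsilateral minus contralateral, was fitted to all 10 arrays with limma 3.58.1 (R 4.3.3; lmFit and eBayes, no covariates), two-sided, and p-values were adjusted by Benjamini-Hochberg over all 30142 genes. A gene passed at an adjusted p under 0.05. The fit was tested on simulated data. The labels call the samples biological replicates, gave no scan date or slide, and do not tie a sample of one side to one of the other. The number of arrays limits the precision.

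The 36 genes and the gene lists were chosen with earlier results of these data known. All 36 genes were to be named. Of each other vascular list, the genes that passed were named where there were 5 or fewer, and otherwise the strongest 3. Where none passed, the gene with the largest moderated statistic was named. Marker genes that passed were named where a list held 5 or fewer. Ttr, Acta2 and Snap25 were named after their values were seen. Alternatives were a block for the replicate number, other scalings, 2 filters on dim genes, the mean of a gene's rows, another variance prior, array weights and each array left out. The omission of the arrays numbered 2 and 4 and the restriction to protein-coding genes were chosen after seeing the data.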

Additional observations from a re-analysis of the deposited data

Results flagged for a closer look

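Single arrays stood far from the rest of their side in 5 of 96 groups of 5 arrays, and all 5 were contralateral. For independent groups about 1 in 20 would be flagged by chance, but genes of the same vessels are not independent. Each had a gap to its nearest neighbour of more than Dixon's 95% critical share of the whole range. Contralateral array 2 was high for Ocln (7.83, the next at 7.38) and for Icam1 (5.10, the next at 4.83). Contralateral array 1 was low for Slc2a1 (13.20, the next at 13.60) and high for Tfrc (10.96, the next at 10.58). Contralateral array 4 was low for Cd34 (10.10, the next at 10.93).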

How the results depend on the processing

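No alternative called any of the 35 vascular genes lower, and calls with higher signal appeared under some alternatives. Quantile scaling called 1 of them (Vtn, adjusted p = 0.0450), the filter on the lowest 25% of genes 2 (Vtn 0.0427, Icam1 0.0466), that on the lowest 50% 1 (Vtn 0.0328) and array weights 2 (Vtn 0.0421, Icam1 0.0395). Protein-coding genes alone, chosen after seeing the data, gave 2 (Vtn 0.0329, Icam1 0.0357). Over all genes, quantile scaling called 297 higher and 1113 lower of 30142. The filter on the lowest 25% called 472 and 1474 of 22600, and that on the lowest 50% called 534 and 1637 of 15070. Protein-coding genes alone gave 523 higher and 1560 lower of 19046. With each array left out in turn the count of vascular genes called higher ran from 0 to 4. The 4 were F11r, Icam1, Vcam1 and Vtn, without ipsilateral array 1, where 760 of all genes were called higher and 1607 lower. Over all genes, 369 were called higher and 1305 lower, and leaving out arrays gave 111 to 760 and 740 to 1607. Centring arrays on their medians gave 232 and 2623, so that 8.13% of calls were higher against 22.0%. Array weights gave 656 higher and 1614 lower. The omission of the arrays numbered 2 and 4, also chosen after seeing the data, gave 77 and 289.

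The labels do not say that a number marks 1 animal on both sides, so the numbers were not taken as pairs. The deviations of same-numbered samples of the 2 sides correlated at 0.26, 0.25, -0.04, -0.40 and -0.03. Ttr, by contrast, was high on the arrays numbered 2 and 4 of both sides, at 15.87 and 13.64 ipsilaterally and 16.54 and 12.66 contralaterally. These values cannot settle whether equal numbers are pairs. A fixed replicate block gave 177 genes higher, 769 lower and 0 vascular genes called. With it Pgf (0.121), Angpt1 (0.0666), Ifitm1 (0.0723) and Mylk (0.0947) no longer passed and Lamb1 did (0.0492).

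Of 727 values of the vascular genes under 21 alternatives, 666 kept direction and side of the threshold, 14 became calls and 47 turned sign, over 13 genes. None of these 13 genes had a call. With arrays centred on their medians the difference was -0.058 for Ocln, -0.050 for Esam, -0.010 for Jam2, -0.016 for Pecam1, -0.026 for Kdr, -0.068 for Tek, -0.062 for Tie1, -0.042 for Ly6c1, -0.066 for Slco1a4, -0.006 for Slc7a5, -0.014 for Abcb1a, -0.010 for Abcg2 and -0.032 for Selp. Quantile scaling gave -0.0206 for Esam and -0.0473 for Tie1, and array weights -0.0077 for Tek and -0.0365 for Slco1a4. With single arrays left out the ranges were -0.032 to 0.119 for Ocln, -0.0185 to 0.0615 for Esam, -0.0755 to 0.1995 for Jam2, -0.0825 to 0.1275 for Pecam1, -0.014 to 0.1335 for Kdr, -0.0755 to 0.0695 for Tek, -0.0675 to 0.0475 for Tie1, -0.125 to 0.1275 for Ly6c1, -0.0785 to 0.094 for Slco1a4, -0.080 to 0.195 for Slc7a5, -0.058 to 0.207 for Abcb1a and -0.0055 to 0.162 for Abcg2. The cause was not tested. The filters left out Sele and Selp (lowest 25%), and also Marveld2, Plvap, Icam1 and Icam2 (lowest 50%), which then have no value. With 5 arrays a side, differences smaller than the intervals given cannot be told from none.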
